A study of Mus musculus with 26 samples.

Results

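The ROR and COUP-TF nuclear receptors examined here are 4 genes, Rora, Rorb, Nr2f1 and Nr2f2, taken by name from the 36589 gene columns of a single-cell count table of mouse thalamic neurons. They were chosen by symbol and not by a measured value, and all 4 passed the filter on low counts. Each was followed across the cortical systems to which the neurons project, across classes of neurons within a system, and across the clusters that the authors deposited with the cells.

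Nuclear receptors are transcription factors with a zinc-finger DNA-binding domain and a ligand-binding domain. RORα, encoded by Rora, and RORβ, encoded by Rorb, bind a DNA half-site as single molecules and mostly activate transcription, and the REV-ERB receptors Nr1d1 and Nr1d2 compete for the same sites in the circadian clock. COUP-TF1, encoded by Nr2f1, and COUP-TF2, encoded by Nr2f2, are orphan receptors that bind repeats of the half-site as dimers and often repress. Rora is the gene mutated in the staggerer mouse, whose Purkinje cells fail to mature, and it is expressed strongly in the sensory thalamus. Rorb is known for its part in the retina and in cortical layer IV, the layer that receives thalamic axons, and Nr2f1 for its part in the patterning of cortical areas and the growth of thalamic axons.

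The neurons came from mice in which a retrograde label, which travels along the axon to the soma, had marked cells by the cortical system they reach, which was auditory, motor, prefrontal, somatosensory or visual. Thalamic tissue was cut out of slices held in blockers of neural activity, and labelled neurons were picked by hand, so a group holds only the neurons that took up the label. Libraries of transcript 3′ ends with UMIs (unique molecular identifiers, which let each captured transcript be counted once) were made from 1972 cells on 26 plates and sequenced in 3 batches. The cell table records every animal as male, with an age entry of 64 to 112 whose unit is not in its header, and no genotype, treatment or control group differs between the systems.

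Cells are not replicates, so the counts of each animal within a system were added up. The 21 sums comprise 5 from auditory neurons (380 cells), 5 from motor (484), 4 from prefrontal (388), 3 from somatosensory (285) and 4 from visual neurons (435). A cell held 20509 to 683775 UMIs and a sum 4317156 to 20322775. All somatosensory sums lay in batch 2 and all visual sums in batch 3, and 12 of 13 sort dates held 1 system, so a sort date and a system cannot be told apart in most sums. One animal identifier stood for auditory replicate 5 and visual replicate 1 with different sort dates, and these were kept as separate sums. No cell name was shared between plates (0 names), while 372 barcodes were used on more than 1 plate. The labelled tissue was checked against 7 markers of thalamic glutamatergic neurons, all detected in every system with a summed level of 3358 to 6510 CPM (the gene's UMIs scaled to a common total of gene UMIs in every sum). The 6 GABA neuron markers summed to 0 to 72.0 CPM and the 6 cortical markers to 6.25 to 51.7 CPM. Astrocyte markers (10 genes) summed to 377 to 581 CPM in motor, 300.5 to 442 in prefrontal, 199 to 376 in somatosensory, 160.5 to 271 in auditory and 197 to 230.4 in visual sums, with Gfap at 0 in auditory and motor sums and Aqp4 at 0 in visual sums. Of the astrocyte markers, Slc1a2 stood at 143 to 556 CPM, Slc4a4 at 54.6 or less and no other above 10.7. Oligodendrocyte markers (10 genes) summed to medians of 332 CPM in somatosensory and 297 in motor sums. Medians were 182 in visual, 126 in auditory and 60.3 in prefrontal sums, with overlapping ranges up to 463. Microglia markers (10 genes) summed to 119 to 193 CPM. At least 3 markers were held by 69 cells for oligodendrocytes, 32 for astrocytes and 17 for microglia. Leaving out the 115 cells with 3 or more markers of another cell type kept 1857 cells. The values of this alternative stand beside the results it touches.

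In GRCm38 (mm10) with GENCODE vM21, Rora spans chromosome 9, 68653786 to 69388246, plus strand, and Rorb chromosome 19, 18930605 to 19111196, minus strand. Nr2f1 lies on chromosome 13, 78188973 to 78199757, minus strand, and Nr2f2 on chromosome 7, 70351944 to 70366735, minus strand. The 250 bases before the RefSeq start site are shown for Nr2f2, whose level differed most between systems, and for Rora, the most abundant member, from RefSeq on build GRCm38.p6, 5′ to 3′ on the gene's strand. They occupy chr7:70366747-70366996 (minus strand) and chr9:68653536-68653785 (plus strand).
Nr2f2: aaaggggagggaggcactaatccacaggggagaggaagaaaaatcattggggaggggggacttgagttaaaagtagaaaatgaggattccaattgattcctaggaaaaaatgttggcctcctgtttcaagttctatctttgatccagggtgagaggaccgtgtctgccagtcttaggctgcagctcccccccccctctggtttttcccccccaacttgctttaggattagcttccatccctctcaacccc
Rora: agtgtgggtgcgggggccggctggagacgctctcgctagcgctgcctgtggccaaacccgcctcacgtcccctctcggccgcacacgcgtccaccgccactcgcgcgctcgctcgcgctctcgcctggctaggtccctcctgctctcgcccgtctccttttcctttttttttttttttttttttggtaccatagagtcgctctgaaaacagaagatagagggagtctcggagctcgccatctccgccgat
Both are in lower case throughout because the nuclear receptor half-site AGGTCA and its variant GGGTCA, searched on both strands, have no match in them to be marked by capitals. The same 2 motifs were searched in all 6 RefSeq start-site windows of the 4 genes (300 bases each, 250 before the start and 50 after), and neither matched. Over all 32851 RefSeq windows of that length, 16.3% held AGGTCA and 13.7% held GGGTCA on either strand, and the absence of these letters from a window says nothing about receptor binding.

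The labels do not say whether reads were counted by strand, and reads of antisense genes that overlap a member then cannot be told apart from its own. The Nr2f2 5′ end is overlapped by B130024G19Rik, which stood at 25.5 ± 4.11 CPM in somatosensory sums (mean ± SD, n = 3), 12.2 ± 4.18 in motor (n = 5), 4.01 ± 3.17 in auditory (n = 5), 3.48 ± 4.05 in prefrontal (n = 4) and 0.924 ± 1.57 in visual sums (n = 4). It was thus highest in the 2 systems in which Nr2f2 was also highest. A830082K12Rik overlaps the Nr2f1 5′ end and averaged 31.2 to 46.6 CPM in the 5 systems. Gm15511 lies antisense within Rora and averaged 0.209 CPM over the sums.

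The 4 receptors differed widely in abundance. Averaged over the 21 sums, Rora stood at 1561 CPM and ranked 41 of the 35164 genes with a count, Nr2f1 at 185 CPM (rank 1097), Rorb at 172 CPM (rank 1205) and Nr2f2 at 49.8 CPM (rank 4368). These libraries count 3′ ends, so a level in CPM carries no factor for gene length. Of the 1972 cells, 99.3% held a Rora UMI, 79.9% an Nr2f1 UMI, 73.8% a Rorb UMI and 40.9% an Nr2f2 UMI. Across the 5 systems all 4 members differed when edgeR was fitted with batch as a covariate, where 12.6% of the 17211 genes tested passed at a Benjamini-Hochberg adjusted p under 0.05. The adjusted p was 0.0046 for Rora, 0.0023 for Rorb, 0.00035 for Nr2f1 and 8.9e-07 for Nr2f2. With 1 sum for each sort date and system the Rora value was 0.092, and without batch 1 it was 0.075, while the other 3 passed in both. The plot of levels per sum shows all 84 values.

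**Figure D1:**
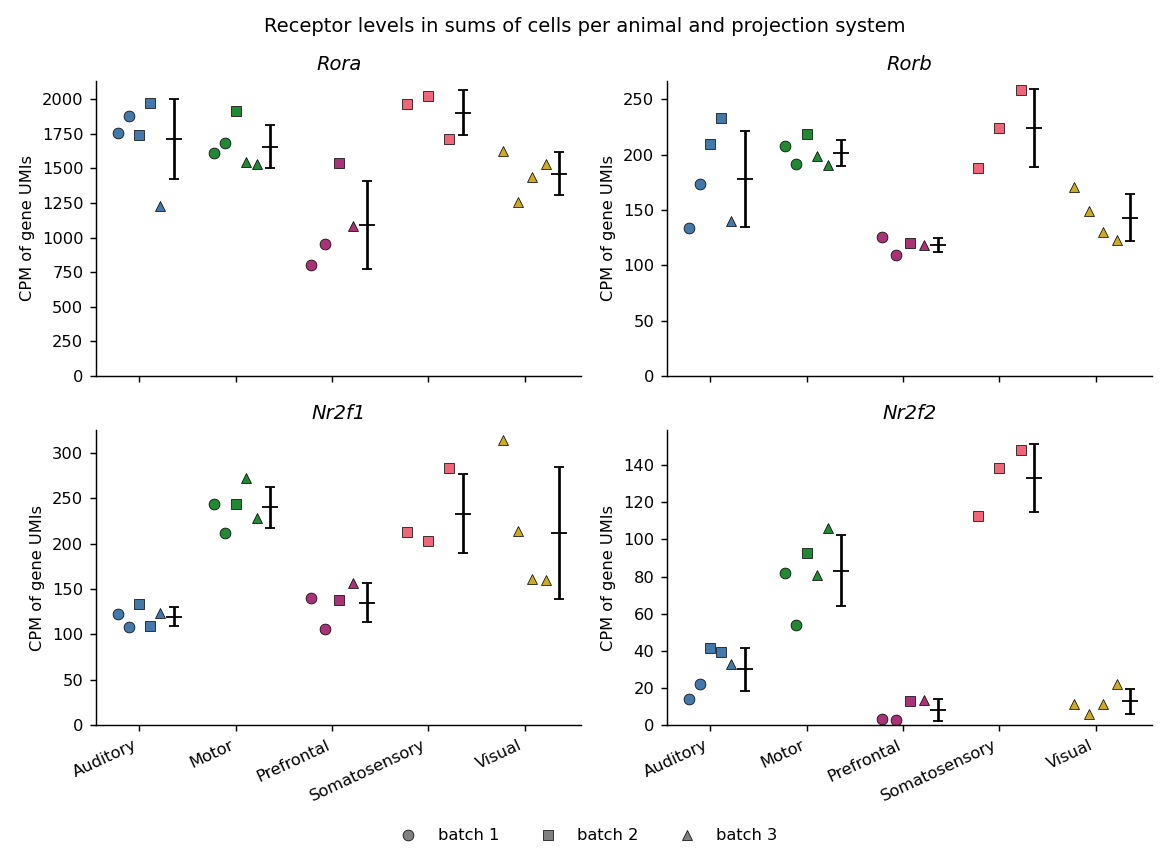
Level of each receptor (CPM of gene UMIs, linear axes from 0) in each of the 21 sums of cells per animal and system, with marker shape giving the sequencing batch and black bars the mean and SD. Prefrontal sums lie low for Rora, Rorb and Nr2f2, and the somatosensory and motor sums of Nr2f2 all lie above the sums of the other systems.

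Prefrontal neurons held less RNA of all 4 receptors than the mean of the other systems. The difference was -0.63 ± 0.11 for Rora, -0.62 ± 0.12 for Rorb, -0.51 ± 0.15 for Nr2f1 and -2.41 ± 0.30 for Nr2f2 (log2 ± SE), with adjusted p of 0.00055, 0.0017, 0.036 and 2.7e-05. In that contrast 9.17% of all genes passed and 3.97% passed as lower. Motor neurons held more Rorb, Nr2f1 and Nr2f2, 3 of the 4, where 3.91% of genes passed and 2.32% passed as higher. Auditory neurons held less Nr2f1 only, where 7.97% of genes passed. Somatosensory neurons held more Nr2f2, where 0.232% passed, and Rorb passed there as well when batch was left out of the model (0.56, adjusted p = 0.021). In visual neurons Nr2f2 alone passed, as lower, where 0.145% passed.

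Rora, the receptor of the staggerer locus, stood at 1756, 1878, 1739.7, 1974 and 1225 CPM in the 5 auditory sums and at 1611, 1681, 1913, 1549 and 1535 CPM in the 5 motor sums. It stood at 801, 951, 1538 and 1081 CPM in the 4 prefrontal sums. The first 2 prefrontal values and the last lie below every sum of the other systems, and the third lies within their range. The 3 somatosensory sums held 1969, 2024 and 1716 CPM and the 4 visual sums 1625, 1255, 1438 and 1533 CPM. Ordered by mean level, somatosensory neurons (1903 ± 164) came before auditory (1714 ± 289.8), motor (1658 ± 154), visual (1463 ± 158) and prefrontal neurons (1093 ± 318). Of the neighbours in that order, visual and prefrontal neurons differed (prefrontal minus visual -0.62 ± 0.15 on the log2 scale, adjusted p = 0.026). Auditory minus somatosensory was -0.05 ± 0.15, auditory minus motor -0.09 ± 0.12 and motor minus visual 0.05 ± 0.14, and none of these passed. Prefrontal neurons were lower than each of the other 4 systems in its pairwise test, and no other pair passed for Rora.

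Rorb, a close relative of Rora, stood at 134, 174, 209.5, 233 and 139.9 CPM in auditory sums and at 208, 192, 219, 199 and 191 CPM in motor sums. Prefrontal sums held 125, 109, 120.2 and 118 CPM, a narrow range that overlaps only the lowest visual value. Somatosensory sums held 188, 224 and 259 CPM and visual sums 171, 149, 129.6 and 123 CPM. Every somatosensory and motor value thus lay above every visual and prefrontal value. The means were 224 ± 35.2 in somatosensory, 202 ± 11.8 in motor, 178 ± 43.1 in auditory, 143 ± 21.5 in visual and 118 ± 6.70 in prefrontal sums, and no neighbours in that order passed in their pairwise test. Prefrontal neurons differed from auditory (auditory higher by 0.49 ± 0.14, adjusted p = 0.041), motor (0.81 ± 0.14, adjusted p = 0.00038) and somatosensory neurons (prefrontal minus somatosensory -0.77 ± 0.18, adjusted p = 0.015). Motor neurons held 0.40 ± 0.10 more Rorb than the mean of the other systems (log2 ± SE, adjusted p = 0.031). That call was lost without motor replicate 1, 2, 4 or 5 or somatosensory replicate 1 (0.36 to 0.45 over all sums left out), with no batch term (0.34, adjusted p = 0.13) and with 1 sum for each sort date and system (0.37, adjusted p = 0.19). The direction turned when the median over cells was taken on the scale log2(CPM + 1), at -0.017.

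Nr2f1, the COUP-TF of cortical patterning, divided the systems differently. Auditory sums held 123, 108, 133, 109.7 and 123 CPM, and motor sums 244, 212, 244, 272 and 228 CPM, without overlap. Prefrontal sums held 139.8, 106, 137 and 157 CPM and overlapped the auditory range. Somatosensory sums held 213, 203 and 283 CPM and visual sums 315, 214, 161 and 160.0 CPM, the widest spread of any system. The means were 239.9 ± 22.4 in motor, 233 ± 43.5 in somatosensory, 212 ± 72.8 in visual, 135 ± 21.2 in prefrontal and 119 ± 10.6 in auditory sums, and again no neighbours in that order passed. Auditory neurons were lower than the mean of the other systems by -0.76 ± 0.14 (log2 ± SE, adjusted p = 0.0015), and this held without any 1 sum (-0.81 to -0.71). Without batch 2 it was -0.66 (adjusted p = 0.090), and within batches 1, 2 and 3 alone it was -0.57, -0.77 and -0.74, where none passed. Nr2f1 was higher in motor neurons by 0.53 ± 0.13 (adjusted p = 0.021), a call lost without motor replicate 1, 3 or 4 (0.50 to 0.60 over all sums left out). The lower prefrontal level, -0.51 ± 0.15, lost its call without any 1 of 7 sums: prefrontal replicates 1 to 4, auditory replicate 1, motor replicate 1 and somatosensory replicate 3 (-0.57 to -0.44). Without the cells that held markers of other cell types, the motor and prefrontal differences of Nr2f1 were 0.54 (adjusted p = 0.051) and -0.48 (adjusted p = 0.10).

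Nr2f2 had the widest range of the 4 receptors. Somatosensory sums held 112, 138 and 148 CPM and motor sums 81.9, 53.9, 92.7, 80.7 and 106 CPM. Auditory sums held 13.8, 22.3, 41.3, 39.1 and 33.1 CPM. All 8 somatosensory and motor sums lay above all auditory sums. Visual sums held 11.4, 5.89, 11.2 and 22.2 CPM and prefrontal sums 3.10, 2.71, 12.7 and 13.7 CPM. Auditory sums overlapped the visual range and lay above the prefrontal range, the lowest auditory value next to the highest prefrontal value. The means ran from 133 ± 18.4 in somatosensory and 83.0 ± 19.2 in motor through 29.9 ± 11.6 in auditory to 12.7 ± 6.84 in visual and 8.07 ± 5.99 in prefrontal sums. Somatosensory and motor levels did not overlap, although the difference in the fit with batch, -0.20 ± 0.39 for motor minus somatosensory (adjusted p = 1), did not pass.

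The Nr2f2 contrasts against the mean of the other systems were 2.28 ± 0.35 in somatosensory (log2 ± SE, adjusted p = 0.0053), 2.02 ± 0.23 in motor (adjusted p = 8.5e-05), -2.41 ± 0.30 in prefrontal and -1.85 ± 0.35 in visual neurons (adjusted p = 0.029). Of the neighbours in the order of means, motor exceeded auditory neurons (auditory minus motor -1.65 ± 0.29, adjusted p = 0.00089), while auditory minus visual was 1.45 ± 0.38 (adjusted p = 0.082) and prefrontal minus visual -0.44 ± 0.39 (adjusted p = 0.69). The visual call was lost without any 1 of 7 sums: visual replicate 1, 2 or 3, auditory replicate 5, motor replicate 5, prefrontal replicate 4 or somatosensory replicate 3 (-2.26 to -1.56). The somatosensory call stayed through every sum left out, with an adjusted p of up to 0.049 (2.11 to 2.46). Without the cells with markers of other cell types the 4 differences were 2.27, 2.00, -2.41 and -1.86, each with an adjusted p under 0.05. With sums per sort date the somatosensory and visual differences were 2.34 and -1.83 and did not pass.

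**Figure D2:**
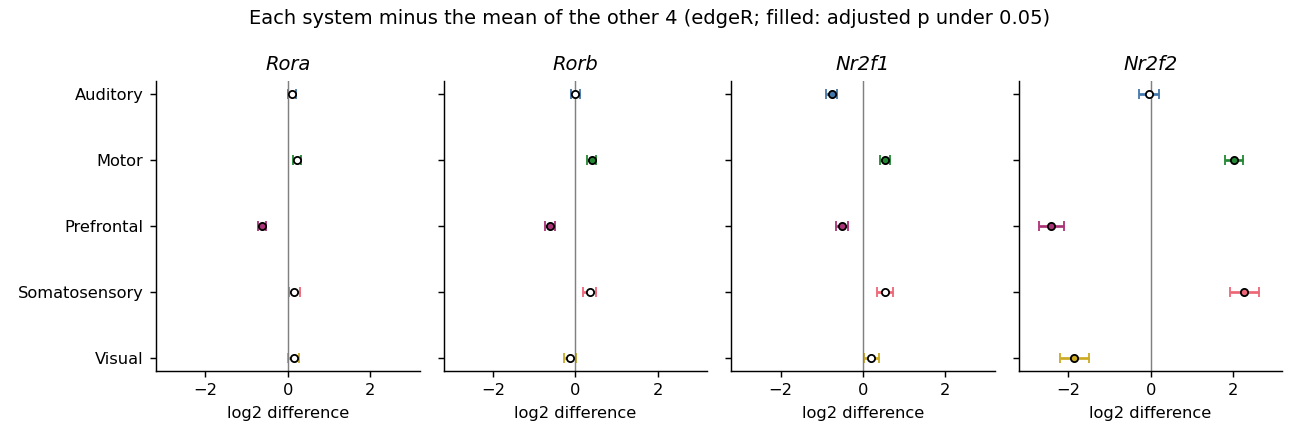
Log2 difference (± SE, edgeR) of each receptor in each system from the mean of the other 4 systems, with sequencing batch in the model, and filled points for adjusted p under 0.05. The prefrontal point is filled and below 0 in all 4 panels, and the Nr2f2 points reach from -2.41 to 2.28.

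Between pairs of systems, motor exceeded prefrontal neurons in all 4 receptors, where 10.8% of genes passed, and somatosensory exceeded prefrontal neurons in all 4, where 4.03% passed. Auditory and prefrontal neurons differed in 3 (Rora, Rorb and Nr2f2, with 4.54% of genes passing). Auditory neurons differed from motor and from somatosensory neurons in Nr2f1 and Nr2f2, with 8.52% and 4.78% passing. Visual neurons differed from motor (3.10 ± 0.36 for motor minus visual, adjusted p = 0.00014) and from somatosensory neurons (3.30 ± 0.48 for somatosensory minus visual, adjusted p = 0.0039) in Nr2f2 alone, where 0.686% and 0.0465% of genes passed, and from prefrontal neurons in Rora alone (3.05%). For motor against somatosensory neurons 0 of 17211 genes passed edgeR's test, while 29 passed in DESeq2. In edgeR 665 genes had an unadjusted p under 0.05, fewer than that threshold gives when no gene differs. For auditory against visual neurons, where 0.761% of genes passed, the receptors with the largest differences were Nr2f2 and Nr2f1 (-0.77 ± 0.21, adjusted p = 0.099).

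Within single batches, with fewer animals, the mean levels of prefrontal Rora and Rorb were the lowest of the systems measured there. Prefrontal Nr2f1 averaged 123, 137 and 157 CPM in batches 1, 2 and 3, above auditory Nr2f1 at 115, 121 and 123 CPM. In batch 1 Rora averaged 876 CPM in 2 prefrontal sums against 1817 in 2 auditory and 1646 in 2 motor sums. In batch 2 the 1 prefrontal sum held 1538 CPM against 1857 in auditory, 1913 in motor and 1903 in somatosensory sums. In batch 3 the 1 prefrontal sum held 1081 CPM against 1225 in the 1 auditory, 1542 in motor and 1463 in visual sums. Prefrontal Rora was thus lowest in each batch, and the difference was -0.32 within batch 2 and -0.40 within batch 3, where neither passed. For Nr2f2 the prefrontal level was 2.90 CPM in batch 1, 12.7 in batch 2 and 13.7 in batch 3, where the visual sums averaged 12.7 CPM.

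The 3 anchor genes Tnnt1 (a troponin), Necab1 (a neuronal calcium-binding protein) and Calb2 (calretinin) were used to divide the neurons within each projection system. Cells were put into the class of whichever anchor had the highest CPM, a rule that uses none of the 4 receptors: 756 Tnnt1, 532 Necab1 and 611 Calb2 cells, with 73 in no class. Sums of 5 or more cells per animal, system and class numbered 58 (20, 20 and 18), and each animal and system was a block in the fit, because its classes came from the same animal. The median depth was 90468 UMIs per cell in the Tnnt1, 83771 in the Necab1 and 87726 in the Calb2 class. Systems differ in their classes: auditory neurons held 238 Calb2 and 92 Tnnt1 cells, prefrontal 175 and 48, visual 145 and 179, motor 48 and 209, and somatosensory 5 and 228.

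Rora fell from the Tnnt1 to the Necab1 to the Calb2 class. It ranged from 1630.4 to 3308 CPM in the 20 Tnnt1 sums (median 2064), from 1129.6 to 2808 in the 20 Necab1 sums (median 1479) and from 581 to 1613 in the 18 Calb2 sums (median 1079). The Calb2 and Tnnt1 ranges do not overlap, and the Necab1 range overlaps both. Within animals the Necab1 class was lower than the Tnnt1 class in 19 of 19 pairs (-0.45 ± 0.08 log2, adjusted p = 0.00019, with 5.46% of 12131 genes passing). The Calb2 class was lower than the Tnnt1 class in 17 of 17 pairs (-1.07 ± 0.09, adjusted p = 3.0e-12, with 11.9% passing) and lower than the Necab1 class in 17 of 18 (-0.62 ± 0.08, adjusted p = 1.6e-06, with 12.5% passing).

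Nr2f1 was lower in the Calb2 class than in the Tnnt1 class (-0.71 ± 0.15, adjusted p = 0.00056, lower in 14 of 17 pairs) and than in the Necab1 class (-0.53 ± 0.15, adjusted p = 0.012, lower in 14 of 18 pairs). It averaged 137 ± 79.7 CPM in Calb2, 197 ± 72.4 in Necab1 and 211 ± 53.5 in Tnnt1 sums, with ranges that overlap. Rorb did not pass between any 2 classes in edgeR, with -0.48 ± 0.19 for Calb2 minus Tnnt1 (adjusted p = 0.098, lower in 10 of 17 pairs). That difference passed with DESeq2 (-0.47, adjusted p = 0.049) and with no filter on low counts (-0.49, adjusted p = 0.017), and without motor replicate 2 (-0.54, adjusted p = 0.044), where Calb2 minus Necab1 passed as well (-0.52, adjusted p = 0.042). Nr2f2 did not pass either, although it was lower in the Necab1 than in the Tnnt1 class in 17 of 19 pairs (-0.98 ± 0.37, adjusted p = 0.13) and lower in the Calb2 class in 13 of 17 (-1.003 ± 0.39, adjusted p = 0.091). Both Nr2f2 differences passed with DESeq2 (adjusted p of 0.046 and 0.018) and with no filter (0.016 and 0.012), at -0.95 and -1.04 and at -0.99 and -1.02 on the log2 scale. Both also passed without auditory replicate 2 (-1.10, adjusted p = 0.048, and -1.14, adjusted p = 0.030), and Calb2 minus Tnnt1 without auditory replicate 5 (-1.21, adjusted p = 0.031).

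The size of the Rora class difference depended on the system (edgeR interaction of class and system, adjusted p = 0.0017, where 0.437% of genes passed). The interaction did not pass for Rorb (adjusted p = 0.42), Nr2f1 (1) or Nr2f2 (0.89). From 1 fit, Calb2 minus Tnnt1 for Rora was -1.81 ± 0.13 in prefrontal, -1.08 ± 0.11 in auditory, -0.98 ± 0.12 in visual and -0.59 ± 0.11 in motor neurons, with adjusted p of 2.5e-12, 8.5e-09, 8.2e-06 and 0.0036. The shares of genes that passed in these 4 comparisons were 5.41%, 3.54%, 0.783% and 0.420%. Somatosensory neurons had too few Calb2 cells for this comparison. The prefrontal Tnnt1 sums held 6, 34 and 6 cells, and the motor Calb2 sums held 8, 10, 15, 7 and 8. This fit was not rerun with 10 or more cells per sum. The prefrontal difference exceeded the mean of the other 3 by -0.93 ± 0.15 (adjusted p = 0.00015, where 0.857% of genes passed). Nr2f1 passed for Calb2 minus Tnnt1 within prefrontal neurons (-1.16 ± 0.35, adjusted p = 0.039) and in no other system of this fit.

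Systems were then compared within 1 class. Prefrontal Calb2 sums held 581 to 642 CPM (620 ± 27.4, n = 4), below the range of each other system measured, which began at 747 CPM in visual neurons (942 ± 174, n = 4), 875 in auditory (1276 ± 282, n = 5) and 948 in motor neurons (1257 ± 203, n = 5). Within that class alone the prefrontal difference was -0.90 ± 0.15 (adjusted p = 0.0010, where 5.32% of genes passed). Within the Tnnt1 class the prefrontal sums held 2232 ± 289.6 CPM (n = 3) and the difference was 0.05 ± 0.09 (adjusted p = 0.87, where 0.259% passed). Within the Necab1 class the 4 prefrontal sums held 1415, 1331, 1814 and 1129.6 CPM, within or below the auditory range of 1353 to 2808 and the motor range of 1416 to 1807 except for the third, which lay just above the motor range. The prefrontal difference in that class was -0.21 ± 0.12 (adjusted p = 0.84, where 0.381% passed). Calb2 class cells made up 46 of 64 and 53 of 74 cells in the 2 prefrontal animals of batch 1, against 62 of 170 and 14 of 80 in the others, and the part of this makeup in the prefrontal Rora level was not tested. Auditory Tnnt1 neurons held the most Rora of that class, 2708 ± 352 CPM (0.32 ± 0.08 above the other systems, adjusted p = 0.035, where 2.49% passed).

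The higher Nr2f2 of motor neurons was also measured in the Calb2 class, where it stood at 66.6 ± 41.6 CPM in motor sums (n = 5) against 30.01 ± 12.9 in auditory (n = 5), 5.63 ± 4.87 in prefrontal (n = 4) and 4.54 ± 5.97 in visual sums (n = 4), a difference of 3.11 ± 0.61 (adjusted p = 0.0057, where 4.53% of genes passed). Motor Calb2 sums ranged from 42.8 to 140.5 CPM and overlapped the auditory range of 15.1 to 45.0 CPM. These motor sums held 7 to 15 cells, with 27 and 31 Nr2f2 UMIs in replicates 4 and 5. Visual replicates 2 and 3 held 0 and 1 Nr2f2 UMI in that class, so the size of the log2 difference rests in part on counts near 0. In the Tnnt1 class Nr2f2 differed among the systems (adjusted p = 0.025, where 1.21% of genes passed), with 138 ± 23.8 CPM in somatosensory (n = 3), 105 ± 22.7 in motor (n = 5), 34.1 ± 33.9 in prefrontal (n = 3), 28.9 ± 29.9 in auditory (n = 5) and 21.1 ± 11.4 in visual sums (n = 4). Rorb differed among the systems in the Tnnt1 class as well (adjusted p = 0.044), with 89.5 ± 2.38 CPM in prefrontal sums (n = 3) against 241 ± 27.8 in motor sums (n = 5). In the Necab1 class none of the 4 receptors passed for a difference among systems (adjusted p of 0.086 to 0.33, where 1.42% of genes passed).

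**Figure D3:**
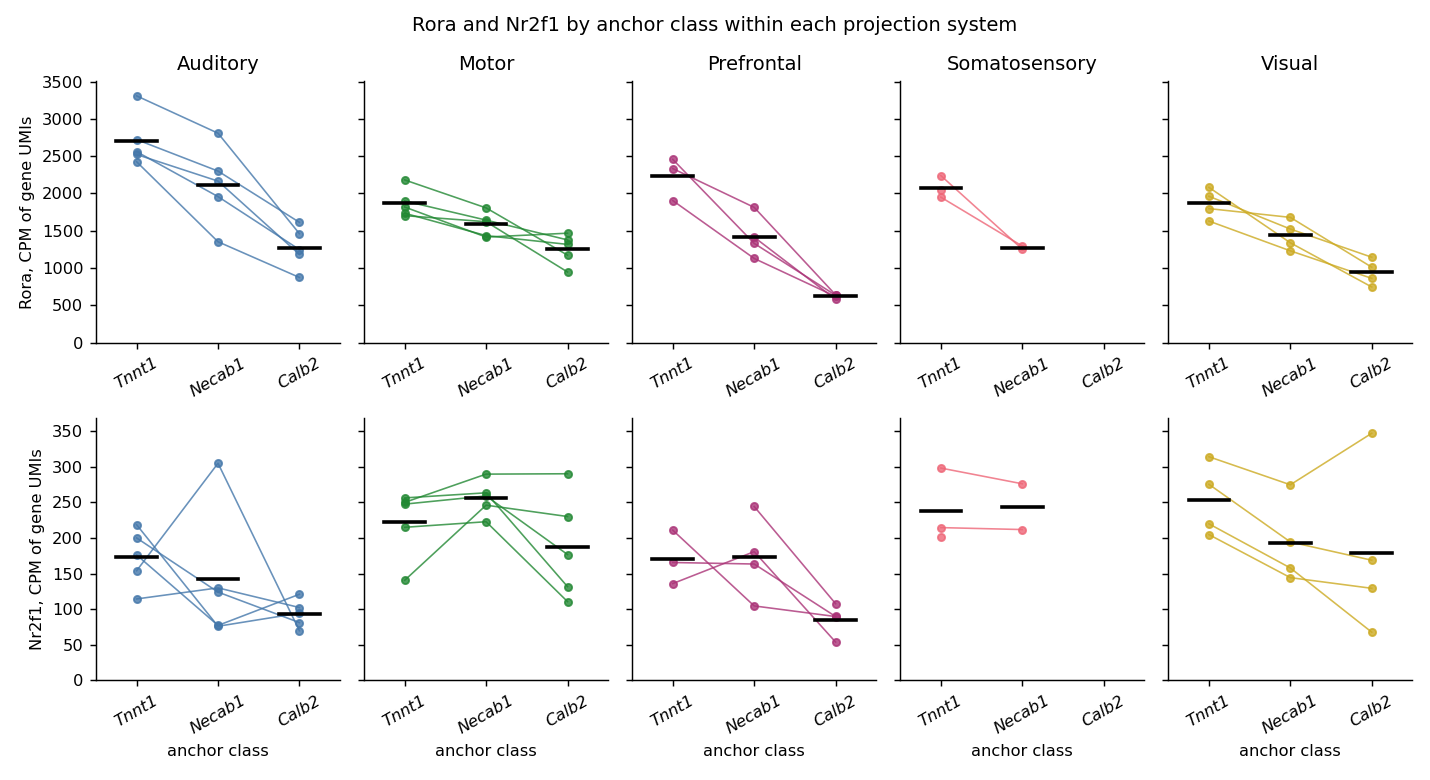
Level of Rora (top) and Nr2f1 (bottom) in CPM of gene UMIs, on linear axes from 0, in the Tnnt1, Necab1 and Calb2 classes of each system, with each point a sum of 5 or more cells and lines joining the classes of 1 animal. For Rora the lines fall from the Tnnt1 to the Calb2 class in every animal with both, and the prefrontal Calb2 points lie at 581 to 642 CPM.

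The authors' clusters show where the receptors were high and low inside each system. Clusters were made from the same counts, so these levels are descriptive and carry no test. Rora reached 2674 ± 248 CPM in auditory cluster Aud_1 (5 sums, 101 cells), 1782 ± 179 in Aud_2 and 355 ± 148 in Aud_3 (63 cells), which ranged from 209.8 to 582 CPM and held 61 Calb2 class cells. It was 2503 ± 121 in somatosensory cluster Som_2 (3 sums) and 2317 ± 188 in motor cluster Mot_2 (4 sums). The prefrontal clusters Pfr_3 and Pfr_4, of 2 sums each, held 673 ± 39.3 and 576 ± 205 CPM against 1571 ± 111 in Pfr_2 and 2006 ± 390.3 in Pfr_1. The 3 lowest clusters were auditory or prefrontal.

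Rorb was highest in motor cluster Mot_1 (359 ± 37.8 CPM) and somatosensory cluster Som_1 (300.5 ± 54.7 CPM) and lowest in visual cluster Vis_3 (61.2 ± 48.5 CPM). Rora was not highest in those Rorb-rich clusters, with 1333 ± 172 CPM in Mot_1 and 1788 ± 74.0 in Som_1. Nr2f2 was also highest in Som_1 (166.5 ± 36.8 CPM) and Mot_1 (125 ± 28.9 CPM), and lowest in prefrontal clusters Pfr_3 (2.08 ± 1.19 CPM) and Pfr_4 (7.71 ± 0.781 CPM). Among prefrontal clusters Nr2f2 was 47.1 ± 33.7 CPM in Pfr_1 and 10.5 ± 10.2 in Pfr_2. Nr2f1 varied less, from 82.9 ± 15.4 CPM in Aud_3 to 250.02 ± 23.8 in Mot_2. Close to Mot_2 stood Som_2 (249.7 ± 30.3 CPM), visual cluster Vis_1 (249.6 ± 77.9) and Mot_1 (249.1 ± 12.8), and Pfr_2 held 234 ± 87.8 CPM.

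**Figure D4:**
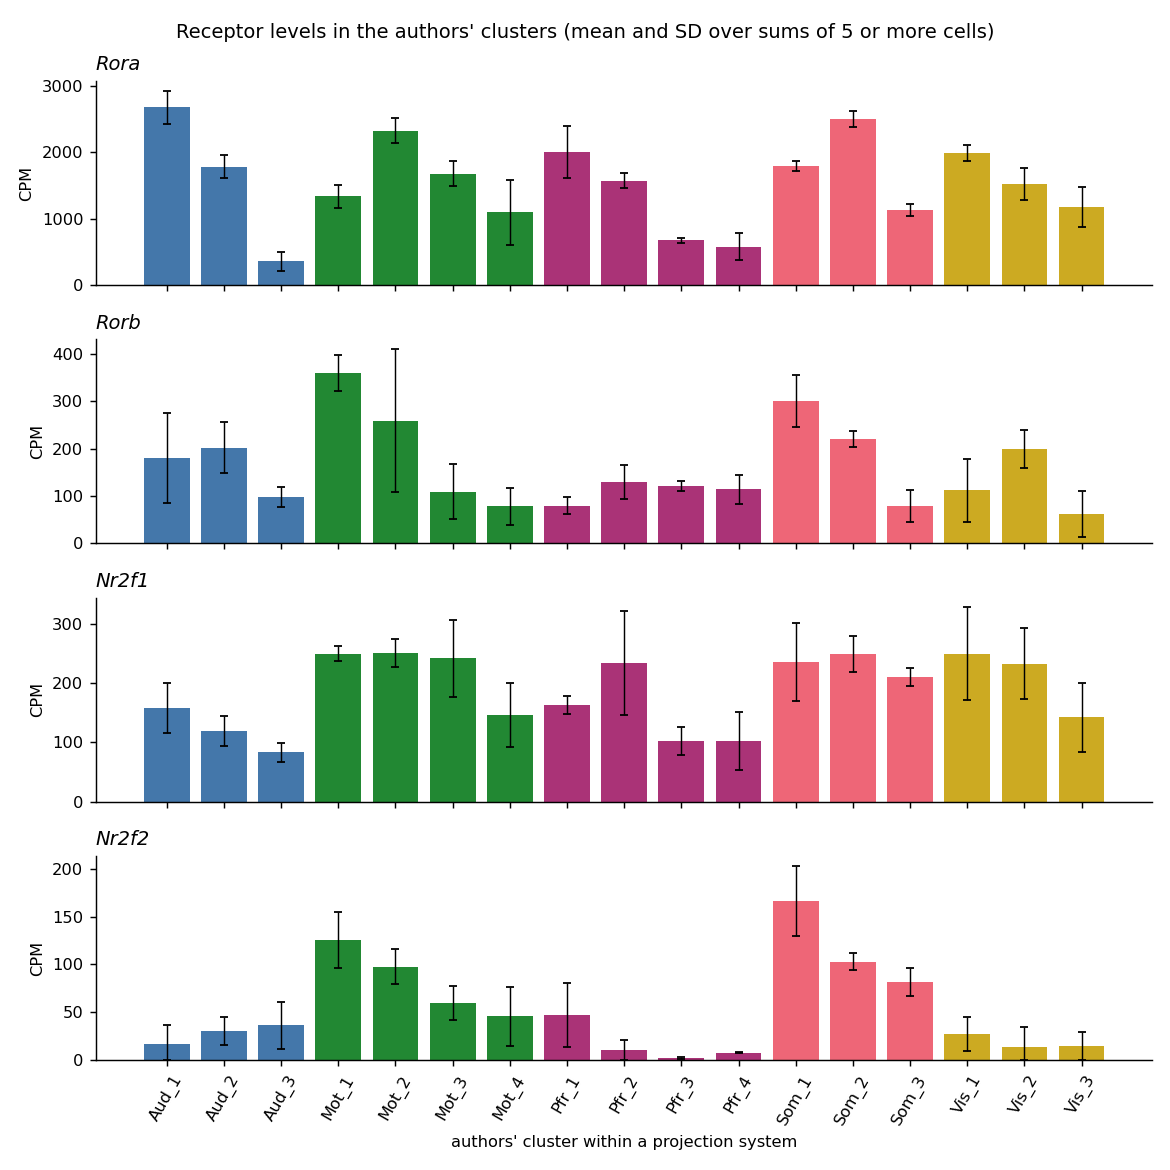
Mean level (CPM, bars from 0) and SD over sums of 5 or more cells per animal for each receptor in the 17 clusters the authors deposited, colored by system. Bars fall to 355 CPM in Aud_3 for Rora, peak in Mot_1 and Som_1 for Rorb and Nr2f2, and Nr2f2 reaches at most 47.1 CPM in the auditory, prefrontal and visual clusters.

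The 9 joint clusters, which group cells of several systems, gave the same levels in another arrangement and were likewise not tested. Rora was highest in joint cluster 2 (2444 ± 263 CPM, 8 sums, mostly motor and somatosensory cells) and lowest in joint cluster 8 (281 ± 90.8 CPM, 62 cells in auditory sums), followed by joint cluster 9 (631 ± 5.93 CPM, 99 prefrontal cells in 2 sums). Within joint cluster 1, Nr2f2 stood at 169 ± 46.2 CPM in 3 somatosensory sums, 115 ± 23.4 in 3 motor sums, 28.9 in 1 auditory sum and 24.2 in 1 prefrontal sum. Within joint cluster 3 it stood at 176 ± 37.0 CPM in 2 motor sums of 15 cells and at 15.5 ± 7.99 in 4 visual sums of 313 cells. Rora in joint cluster 3 was 1671 ± 227 CPM in the motor sums and 1695 ± 229.6 in the visual sums. Cells of 1 joint cluster thus held unequal Nr2f2 by system, while Rora overlapped between the systems in that cluster.

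Single cells were compared after thinning each to 20000 UMIs, below which no cell lay. With that depth 96.3% to 100% of cells, averaged per system, held a Rora UMI. Nr2f2 was detected in 65.7% ± 5.51 of somatosensory cells (mean ± SD over 3 sums), 50.7% ± 4.003 of motor, 19.1% ± 5.90 of auditory, 10.98% ± 3.80 of visual and 8.65% ± 3.49 of prefrontal cells, and unthinned in 81.9%, 67.3%, 30.6%, 13.7% and 15.998%. Nr2f1 was detected in 85.0% ± 3.49 of somatosensory, 84.8% ± 3.71 of motor, 71.7% ± 11.4 of visual, 57.5% ± 9.51 of prefrontal and 49.5% ± 4.25 of auditory cells, and Rorb in 58.4% to 75.4%. The unthinned shares were 90.2%, 92.8%, 77.8%, 70.8% and 64.7% for Nr2f1. No group of cells known to lack these genes was at hand to give a background share. The 20 cells that the authors flag as is_ODC, a name the cell table does not explain, all carried 3 or more oligodendrocyte markers. After thinning, 100% of them held a Rora UMI, 55.0% Rorb, 70.0% Nr2f1 and 35.0% Nr2f2, at a median depth of 93102 UMIs per cell. In the 1903 cells with neither the flag nor 3 such markers the shares were 98.5%, 63.3%, 70.6% and 30.2%, at a median depth of 85402 UMIs.

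Both COUP-TF genes were found in the same cell in 55.8% ± 3.31 of somatosensory and 42.4% ± 4.25 of motor cells, against 9.72% ± 3.67 of auditory, 9.54% ± 2.96 of visual and 6.73% ± 2.74 of prefrontal cells. Nr2f1 without Nr2f2 made up 62.2% ± 11.6 of visual and 50.8% ± 6.77 of prefrontal cells. Nr2f2 without Nr2f1 made up 1.44% to 9.85% of cells, averaged per system. In auditory cells its share was 9.40%, close to the 9.72% that held both. Neither COUP-TF was detected in 41.1% ± 3.96 of auditory and 40.5% ± 10.1 of prefrontal cells but in 5.16% ± 1.00 of somatosensory and 6.83% ± 1.62 of motor cells. Rorb without Rora was found in 0% to 1.36% of cells, where 96.3% to 100% of all cells per system held Rora. Shares of both genes expected from each gene's own share were not computed for either pair. Within a sum the 2 members of a pair were only weakly correlated from cell to cell. The median Spearman rho over 21 sums was 0.09 for the ROR pair and 0.03 for the COUP-TF pair. At 20000 UMIs such values in sparse counts are no finding.

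**Figure D5:**
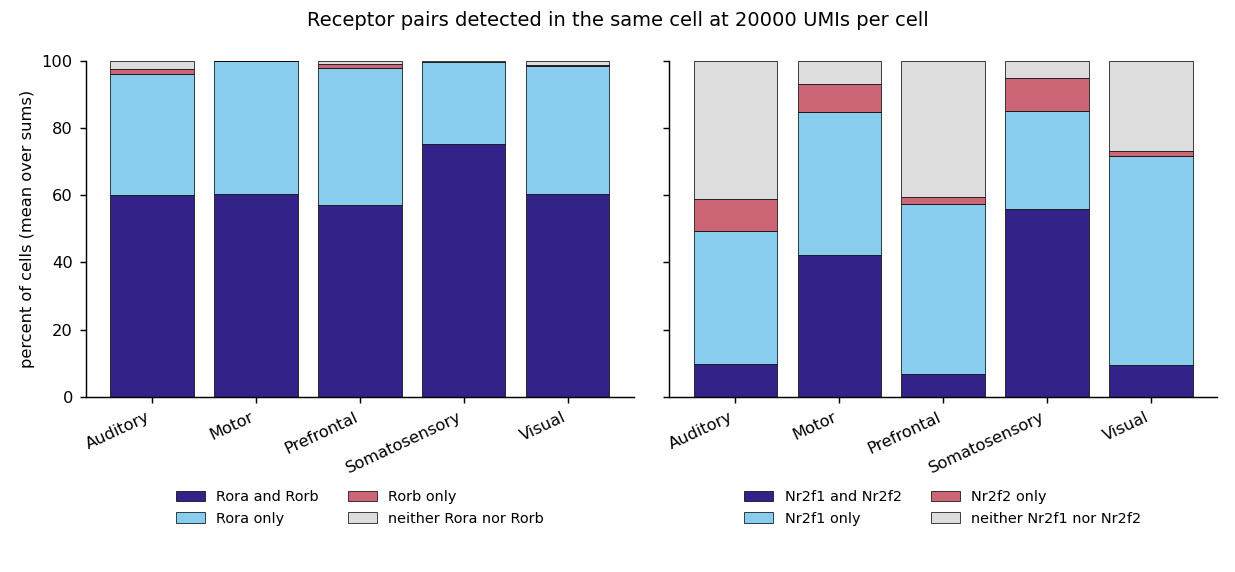
Share of cells (percent, mean over sums) that hold a UMI of both, of 1 or of neither receptor of a pair after thinning to 20000 UMIs, for the ROR pair and the COUP-TF pair in each system. Both COUP-TF genes were detected together in 55.8% of somatosensory and 42.4% of motor cells and in at most 9.72% of cells, on average, in the other systems.

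The genes whose level followed a member most closely over the 21 sums are given as a description, over 8906 candidate genes with a mean of at least 10 CPM, and the sums share systems, batches and depth. For Rora these were Ppp3ca, the catalytic subunit of calcineurin (Pearson r = 0.912), Gabbr2, a subunit of the GABA-B receptor (0.910), Cacna2d1, a calcium channel subunit (0.899), and F2r (0.898). For Rorb they were Snap25, a protein of vesicle fusion (0.870), Ogfrl1 (0.864), Kalrn (0.855), Lpcat4 (0.841) and Nbr1 (0.840). For Nr2f1 they were Klf3 (0.891), the ephrin receptor Epha4 (0.883), the G-protein regulator Rgs4 (0.882), Osbpl3 (0.871) and Atp13a2 (0.862), and for Nr2f2 Trim9 (0.903), Lynx1 (0.899), Hhatl (0.879), Snap25 (0.877) and Plcb4 (0.874). Between members r was 0.8288 for Rorb and Nr2f2, 0.748 for Rora and Nr2f2, 0.718 for Rora and Rorb, 0.540 for Rorb and Nr2f1, 0.509 for Nr2f1 and Nr2f2, and 0.313 for Rora and Nr2f1. Nr2f1 was thus the member whose levels followed the others least.

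The nearest relatives of the members were examined next. Nr1d1 and Nr1d2, the REV-ERB repressors that oppose the RORs at their sites, passed in no contrast of 1 system against the others. Nr1d1 stood at 18.3 ± 3.61 CPM in visual (n = 4) and 38.5 ± 19.4 in auditory sums (n = 5). Nr1d2 stood at 66.2 ± 22.1 CPM in prefrontal (n = 4) and 103 ± 17.3 in auditory sums (n = 5). Between Calb2 and Necab1 neurons, 2 of 4 tested ROR and REV-ERB genes passed as lower, Rora among them, where 12.5% of all genes passed. Of the 6 COUP-TF and related orphan receptors 5 were tested, and Nr2f6, the third COUP-TF-like gene, differed among the 5 systems (adjusted p = 0.024) with 57.5 ± 8.21 CPM in motor, 56.4 ± 4.67 in somatosensory, 36.3 ± 15.1 in visual, 26.3 ± 17.8 in prefrontal and 25.4 ± 5.13 in auditory sums. Nr2f6 thus stood in the same order as Nr2f1 from motor to auditory neurons. Nr2c1 and Nr2c2 passed in no system contrast, and Nr2e1 stood at 0 to 0.240 CPM and was not tested.

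Of 38 other nuclear receptors, 24 were tested. In prefrontal neurons, where 9.17% of all genes passed, 3 rose (Esr1 5.99 ± 1.37, Rarb 1.71 ± 0.35 and Thrb 0.93 ± 0.23, log2 ± SE) and 2 fell (Esrra -0.74 ± 0.22 and Nr6a1 -1.05 ± 0.31), with a list median of -0.24 against 0.024 over all genes. Esr1, the estrogen receptor, stood at 1.19 to 9.16 CPM in prefrontal and 0 to 0.0628 CPM in motor sums. In auditory neurons, where 7.97% of all genes passed, 4 rose (Rxrg, a retinoid X receptor, by 3.26 ± 0.86, Nr6a1 by 0.93 ± 0.27, and the thyroid hormone receptors Thrb by 0.82 ± 0.20 and Thra by 0.51 ± 0.10) and 1 fell, the glucocorticoid receptor Nr3c1 (-0.47 ± 0.11). In motor neurons, where 3.91% of all genes passed, Esrra rose by 0.94 ± 0.18 and Thrb fell by 1.11 ± 0.22 on the log2 scale. None of the 24 passed in somatosensory or visual neurons. Between Calb2 and Tnnt1 neurons, where 11.9% of all genes passed, 3 of 16 tested fell, among them Esrra (-1.20 ± 0.20) and Nr3c1 (-0.39 ± 0.11), and Thra rose by 0.42 ± 0.11. In the same comparison Nr2c2 (-0.52 ± 0.18), the coactivator Ppargc1a (-1.43 ± 0.26) and the clock genes Hlf (-0.71 ± 0.12) and Npas2 (-1.15 ± 0.34) fell.

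Of 19 receptor coactivators and corepressors, all tested, 1 passed in prefrontal neurons, 1 in motor and 3 in auditory neurons, against 9.17%, 3.91% and 7.97% of all genes, and a count of 1 of 19 is near or below those shares. Ncoa1 fell in prefrontal neurons (-0.54 ± 0.13), Ppargc1a rose in motor neurons (0.56 ± 0.15), and in auditory neurons Ncor1 (0.38 ± 0.08) and Lcor (0.89 ± 0.26) rose while Ppargc1a fell (-0.54 ± 0.16). Of the 4 zinc fingers known to bind COUP-TFs, Bcl11a (1.92 ± 0.34) and Zfpm2 (3.11 ± 0.88) rose in auditory neurons, at 109.5 ± 22.9 and 5.03 ± 2.83 CPM (n = 5). Of 15 clock genes, 5 passed in auditory, 3 in prefrontal and 1 in motor neurons, where 7.97%, 9.17% and 3.91% of all genes passed. In auditory neurons 4 rose (Per2 1.25 ± 0.37, Per3 0.76 ± 0.15, Cry1 0.70 ± 0.19 and Cry2 0.41 ± 0.11) and 1 fell (Hlf -0.40 ± 0.11). In prefrontal neurons Hlf (-1.002 ± 0.12) and Bhlhe40 (-0.90 ± 0.13) fell and Tef rose (0.28 ± 0.09), and in motor neurons Hlf rose (0.59 ± 0.10). Sort times of day are not in the cell table, and sort dates mostly hold 1 system, so the part of the clock's phase in these levels was not tested.

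Of 5 genes known to depend on Rora in Purkinje cells, 4 were tested. Of these, 2 passed in prefrontal, 1 in motor and 1 in auditory neurons, where 9.17%, 3.91% and 7.97% of all genes passed. Pcp4, a calmodulin-binding peptide, fell in prefrontal neurons (-1.07 ± 0.18), rose in motor neurons (0.91 ± 0.15) and fell in auditory neurons (-0.67 ± 0.16). Rora passed as lower in prefrontal neurons but did not pass in motor (0.21 ± 0.10) or auditory neurons (0.10 ± 0.10). Itpr1, an intracellular calcium channel, rose in prefrontal neurons (0.51 ± 0.12). Between classes Pcp4 was lower in Calb2 than in Tnnt1 neurons (-1.57 ± 0.17, adjusted p = 5.5e-09), as Rora was. Pcp4 was the 1 gene that passed of 3 listed genes tested there, where 11.9% of all genes passed. These genes were listed for another cell type, and their relation to Rora was not tested here.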

How the data were processed

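The deposited values are raw UMI counts of genes in single cells, not normalized, and a second deposited table gives the plate, animal, sort date, system and clusters of each cell, per the file headers. The tools named are cutadapt 1.16, Picard 1.12 and STAR 2.5.3, with the build mm10, per the submitters' processing notes. No annotation, counting rule, strand setting or meaning of the flag on 20 cells is stated in those notes or in the labels. No cells were filtered and no doublet caller was run, because cells were picked by hand. Replicates are animals: counts were summed per animal and system (10 or more cells) or per animal, system and class or cluster (5 or more cells). Replicate numbers are only names and pair no samples. A sum is as precise as its 4317156 to 20322775 UMIs and its number of animals allow.

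All genes were fitted with edgeR 4.0.16 in R 4.3.3 (TMM, filterByExpr, trended dispersion, glmQLFit, glmQLFTest, Benjamini-Hochberg over all genes tested, threshold 0.05). System fits had sequencing batch as covariate (14 residual degrees of freedom) and class fits had each animal and system as a block (35). SE is the size of the log2 difference over the square root of F. The fits were tested on simulated data with known changes. Levels are plain CPM of gene UMIs, means ± SD over sums. The likeness measure is Pearson's r of log2 CPM with a prior count of 2, and the 5 genes with the highest r per member are named (a few genes that this or another list would name are not reported here), besides the members and any gene of a listed pathway or marker set. The alternatives were DESeq2 1.42.0, RLE factors, no filter, no batch term, sums per sort date, single batches, other sets of cells, a single dispersion and each sum left out. The interaction of class and system, the fits within 1 class, the class differences by system and the single dispersion were added after seeing the data. The members and gene lists were chosen with earlier results of these data known.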

Additional observations from a re-analysis of the deposited data

Results flagged for a closer look

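The Rora difference between the Calb2, Necab1 and Tnnt1 classes was not the same in each system, with an adjusted p of 0.0017 in edgeR's interaction of class and system. The Calb2 minus Tnnt1 difference in prefrontal neurons departed from the mean of the auditory, motor and visual differences by -0.93 on the log2 scale (SE 0.15, adjusted p = 0.00015). The prefrontal Tnnt1 sums behind it held only 6, 34 and 6 cells.

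In 2 of 60 groups of 4 to 10 sums, 1 sum stood far from the others, and chance gives about 1 such group in 20. Nr2f1 stood at 305 CPM in the Necab1 class of auditory replicate 5, where the 5 auditory sums had a median of 124 CPM. Nr2f2 stood at 140.5 CPM in the Calb2 class of motor replicate 1, where the 5 motor sums had a median of 46.8 CPM.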

How the results depend on the processing

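Directions and calls of the members were compared across DESeq2, RLE factors, no filter, no batch term, a single dispersion, sums per sort date, other sets of cells, single batches and each sum left out. Of the values that answer a comparison, 191 kept their direction and call, 42 no longer passed, 6 moved and 1 reversed. Runs with 1 sum left out are not in these counts. Single batches hold fewer sums, and there 1 sum of a system is assumed to vary like the others; for other changes the cause was not tested. All Rora differences between classes over all systems, and both Nr2f1 calls there, stayed under each alternative run for them. These were no block, 10 cells per sum, a 2-fold anchor, other sets of cells, DESeq2, RLE factors, no filter and each sum left out. The interaction, the class differences within 1 system and the fits within 1 class were not rerun under them. Among differences that had not passed, 7 values did so under an alternative other than a sum left out. With no batch term this was somatosensory Rorb. With DESeq2 and with no filter these were Rorb and Nr2f2 for Calb2 minus Tnnt1 and Nr2f2 for Necab1 minus Tnnt1. Calls gained with 1 sum left out stand beside the class results. Depth bears most on Nr2f2, which rested on as few as 21 UMIs in a prefrontal sum and 36 in a visual sum. In sums per class it fell to 0 and 1 UMI in the Calb2 class of visual replicates 2 and 3.

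For a difference among the 5 systems, the adjusted p of Rora was 0.092 with sums per sort date, 0.075 without batch 1, 0.655 within batch 2 and 0.123 within batch 3. It was 0.153, 0.216 and 0.194 for Rorb within batches 1, 2 and 3 and 0.317 for Nr2f1 within batch 3.

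Against the mean of the other systems, the log2 differences that no longer passed were as follows. Auditory Nr2f1 was -0.57, -0.77 and -0.74 within batches 1, 2 and 3 and -0.66 without batch 2. Motor Rorb was 0.34 with no batch term, 0.37 with sums per sort date, 0.37 and 0.36 without batches 1 and 3, and 0.62, 0.29 and 0.57 within batches 1, 2 and 3. Motor Nr2f1 was 0.52 with sums per sort date, 0.54 without cells with markers of other types, 0.51 without batch 1, and 0.65 and 0.66 within batches 2 and 3. Motor Nr2f2 was 1.20 within batch 2.

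Prefrontal Rora was -0.32 and -0.40 within batches 2 and 3, and Rorb -0.59, -0.90 and -0.44 within batches 1, 2 and 3. Prefrontal Nr2f1 was -0.55 with sums per sort date, -0.48 without cells with markers of other types, -0.45 and -0.41 without batches 1 and 2, and -0.41, -0.50 and -0.28 within batches 1, 2 and 3. Prefrontal Nr2f2 was -1.33 within batch 3. Somatosensory Nr2f2 was 2.34 with sums per sort date, and visual Nr2f2 was -1.83 with sums per sort date, -1.37 without batch 2 and -1.44 within batch 3.

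With the median over cells on the scale log2(CPM + 1), motor Rorb turned to -0.017. On that scale auditory Nr2f1 was -1.73, motor Nr2f1 1.17, motor Nr2f2 3.58 and somatosensory Nr2f2 5.19, while visual Rora turned to -0.11 and auditory Rorb to -0.090. Prefrontal, visual and auditory Nr2f2 were each -2.92, although auditory Nr2f2 was -0.04 in the main fit. At most 34.5% of the cells of any sum in these systems held an Nr2f2 UMI. The median cell there held none, so these equal values do not rank the systems.

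With 1 sum left out, motor Rorb ranged from 0.36 to 0.45, motor Nr2f1 from 0.50 to 0.60, prefrontal Nr2f1 from -0.57 to -0.44 and visual Nr2f2 from -2.26 to -1.56, and each lost its call at least once. Of the differences that had not passed, auditory Rorb ranged from -0.077 to 0.071, auditory Nr2f2 from -0.16 to 0.060, visual Nr2f1 from -0.062 to 0.32, Rorb between the Necab1 and Tnnt1 classes from -0.17 to 0.0079 and Nr2f2 between the Calb2 and Necab1 classes from -0.22 to 0.15.

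Other differences that had not passed also changed sign. Auditory Rora was -0.10 without batch 1, -0.00055 within batch 2 and -0.16 within batch 3. Auditory Rorb was -0.015 with no filter, -0.047 with sums per sort date, -0.017 without the flagged cells, -0.045 without cells with markers of other types, -0.048 without batch 2, and -0.021 and -0.11 within batches 1 and 3. Auditory Nr2f2 was 0.0071 without cells with markers of other types, 0.59 without batch 2, and 0.34 and 0.36 within batches 1 and 3. Visual Rora was -0.094 with no batch term, and Rorb between the Necab1 and Tnnt1 classes was 0.035 where the highest anchor was at least 2-fold the next. Nr2f2 between the Calb2 and Necab1 classes was 0.0061 without cells with markers of other types.

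Without the block of animal and system in the class fits, which the main fits had because the classes share animals, Rora was -0.46 for Necab1 minus Tnnt1, -1.08 for Calb2 minus Tnnt1 and -0.61 for Calb2 minus Necab1, and Nr2f2 for Calb2 minus Necab1 was 0.017. This changed no other sign and no call. Between systems, no paired analysis was possible because replicate numbers were given in order and pair no animals.

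Of all genes, 2173 differed among the systems, against 3070 with DESeq2, 3357 with no filter, 3152 with a single dispersion, 1317 with sums per sort date and 614, 325 and 530 within batches 1, 2 and 3.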
